A study of Mus musculus with 2 samples.

Results

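The genes described here are 43 lysosomal genes, chosen by name from the 32285 rows of the count table. They were split by symbol into the 16 subunits and accessory proteins of the vacuolar proton pump (V-ATPase, symbols starting with Atp6) and the 27 other members. The other members are 15 hydrolases, 3 soluble proteins that are not enzymes (*Grn*, *Psap* and *Npc2*), 8 membrane proteins and *Tfeb*, a transcription factor that activates lysosomal genes. The question was how the pump and the rest of the lysosome differed between microglial states and between the libraries of treated and control mice.

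Lysosomes are the acidic compartments in which microglia degrade what they take up, including amyloid and myelin. The V-ATPase acidifies them. Its V1 part in the cytosol hydrolyses ATP and turns a rotor, and its V0 part in the membrane carries the protons across. Hydrolases then work at that low pH, and membrane proteins such as LAMP1, LAMP2 and NPC1 protect the membrane or export the products.

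PSAPP mice, which carry the APPswe and PS1δE9 transgenes and deposit amyloid, received vehicle (VEH) or lemborexant (LEM), an antagonist of both orexin receptors, dosed daily at 30 mg/kg for 1 month, starting at an age of 9 months. All mice of both groups carried both transgenes. The sort took CD45loCD11b+ cells of the cortex and hippocampus, and 5 mice of a group, females and males together, were pooled into its 1 library. The VEH library held 18374 cells with a median of 5971 counts (unique molecular identifiers, UMIs) per cell, and the LEM library 24392 cells with a median of 6034. The cell names carry no droplet barcodes, so barcodes shared between the libraries could not be counted.

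Cells were placed in states by the genes they held a count of, none of which is a member. Homeostatic cells held *P2ry12* and *Cx3cr1* and none of *Cst7*, *Lpl*, *Spp1*, *Itgax* and *Gpnmb*, which mark disease-associated microglia (DAM). Intermediate cells held *P2ry12*, *Cx3cr1* and 1 or 2 of those 5 genes. DAM held at least 3 of the 5, whether or not they held *P2ry12* and *Cx3cr1*. There were 14510 VEH and 18048 LEM homeostatic cells, 2617 and 4385 intermediate cells, and 469 and 623 DAM. Cells with at least 4 of 8 interferon-induced genes numbered 259 and 436, and proliferating cells, with at least 3 of 8 cell cycle genes, 147 and 221. A cell that met several gates took the first of choroid plexus, border-associated macrophage, proliferating, DAM and interferon-responsive. Cells that met none, 302 VEH and 468 LEM, were left unassigned. Genes that the gates did not use were read as a check. *Apoe* stood at 945.7 and 1600.5 CPM (counts scaled to the total of the cells summed) in homeostatic VEH and LEM cells and at 6429.9 and 6699.6 in DAM, and *Tmem119* at 2185 and 2218 against 911 and 1062. The summed markers of astrocytes, neurons and endothelium stayed under 15 CPM in homeostatic cells and DAM of both libraries. Those of oligodendrocytes stood at 57.8 and 61.5 CPM in homeostatic VEH and LEM cells and at 53.3 and 66.1 in DAM. The part of these markers in the results was not tested.

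For tests, the cells of each library were divided into female and male by *Xist* and Y-linked counts, which gave 4 pools (VEH female, VEH male, LEM female and LEM male). Cells with neither signal (2682 VEH, 2996 LEM) or both were outside the pools, so the tests used 4472, 7206, 6378 and 8421 homeostatic cells and 146, 222, 222 and 249 DAM in that order. The pools are groups of cells from 2 libraries. How many of the 5 mice of a library were of each sex is not known, and mice within a pool cannot be told apart. The p-values therefore measure the spread between pools and not between mice. States were compared in edgeR with the pool as a block.

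Promoter sequences are shown, as *Tfeb* is a member and the motif of its protein is known, for the 6 members whose window held the palindrome TCACGTGA, the longer form of the CACGTG core of the element that TFEB and related factors bind in lysosomal promoters. Windows run from 250 bases before to 50 after a RefSeq start site on GRCm38.p6, read 5′ to 3′ on the strand of the gene, with the core, or the longer form where present, in capitals.
Atp6v0d1 promoter (V0 subunit d, chr8:105566015-105566314, minus strand): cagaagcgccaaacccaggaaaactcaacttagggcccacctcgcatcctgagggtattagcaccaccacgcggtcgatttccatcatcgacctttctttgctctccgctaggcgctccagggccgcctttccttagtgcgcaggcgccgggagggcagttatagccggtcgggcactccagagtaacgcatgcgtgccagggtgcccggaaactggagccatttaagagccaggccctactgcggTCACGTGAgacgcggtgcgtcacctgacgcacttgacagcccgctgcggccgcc
Atp6v0e promoter (V0 subunit e, chr17:26676146-26676445, plus strand): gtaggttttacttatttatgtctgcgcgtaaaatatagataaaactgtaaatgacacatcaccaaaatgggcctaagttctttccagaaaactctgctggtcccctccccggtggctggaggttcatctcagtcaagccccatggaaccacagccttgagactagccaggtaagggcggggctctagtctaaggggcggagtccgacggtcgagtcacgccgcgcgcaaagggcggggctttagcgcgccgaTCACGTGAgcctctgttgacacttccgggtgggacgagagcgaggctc
Atp6v1a promoter (V1 subunit A, chr16:44139210-44139509, minus strand): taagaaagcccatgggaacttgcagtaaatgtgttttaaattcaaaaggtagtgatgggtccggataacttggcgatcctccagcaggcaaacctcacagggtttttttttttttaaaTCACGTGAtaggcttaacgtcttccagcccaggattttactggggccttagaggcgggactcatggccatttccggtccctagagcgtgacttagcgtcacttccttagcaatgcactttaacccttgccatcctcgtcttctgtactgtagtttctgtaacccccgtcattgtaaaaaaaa
Ctsa promoter (cathepsin A, chr2:164833523-164833822, plus strand): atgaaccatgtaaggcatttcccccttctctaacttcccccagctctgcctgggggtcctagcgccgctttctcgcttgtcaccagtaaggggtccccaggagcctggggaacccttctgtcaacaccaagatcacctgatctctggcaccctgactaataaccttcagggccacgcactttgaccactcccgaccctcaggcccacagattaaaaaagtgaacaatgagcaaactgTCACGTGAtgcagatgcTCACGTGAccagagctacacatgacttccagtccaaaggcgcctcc
Gla promoter (α-galactosidase A, chrX:134600956-134601255, minus strand): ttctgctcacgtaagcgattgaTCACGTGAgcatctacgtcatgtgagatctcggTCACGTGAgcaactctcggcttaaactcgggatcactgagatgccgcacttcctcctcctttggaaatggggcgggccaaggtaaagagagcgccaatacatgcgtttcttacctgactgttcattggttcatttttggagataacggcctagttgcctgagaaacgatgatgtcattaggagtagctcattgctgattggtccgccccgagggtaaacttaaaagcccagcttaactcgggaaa
Mcoln1 promoter (mucolipin channel, chr8:3500269-3500568, plus strand): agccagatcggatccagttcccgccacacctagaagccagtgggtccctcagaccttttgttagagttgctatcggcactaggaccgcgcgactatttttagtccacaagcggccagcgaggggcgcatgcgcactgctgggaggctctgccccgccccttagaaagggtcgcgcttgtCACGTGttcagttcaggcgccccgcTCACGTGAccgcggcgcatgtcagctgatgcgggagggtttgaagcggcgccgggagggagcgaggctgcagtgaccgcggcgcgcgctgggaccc
A RefSeq window was found for 36 of the 43 members, 11 of the V-ATPase group and 25 of the others. The CACGTG core stood in at least 1 window of 4 V-ATPase members (36.4%) and 8 other members (32.0%), against 8.09% of all 27025 genes in the promoter table. Both motifs read the same on the 2 strands, and each longer match is also a match of the core. The longer form was in 3 V-ATPase members (27.3%) and 3 others (12%), against 1.12% of all genes. The table of all genes includes many that microglia may not use, and a match of letters is not evidence of binding. In *Atp6v0d1* the core began 3 bases before the start site and in *Atp6v0e* at base 4 after it, while *Gla* held a pair of matches beginning 227 and 194 bases before the start. *Ctsa* had another window, chr2:164832622-164832921, which holds the annotated start of the gene and had 0 matches. The *Ctsa* window shown lies downstream of it. *Lamp1*, which encodes the major lysosomal membrane glycoprotein, held 4 copies of the core and 0 of the longer form.

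DAM held more transcripts of most lysosomal genes than homeostatic cells. After a filter on low counts 42 of the 43 members were tested. *Atp6v0d2* did not pass. Of the 15 V-ATPase members tested, 13 rose, 0 fell and 2 did not pass the threshold (adjusted p under 0.05, Benjamini-Hochberg over 11428 genes). Of the 27 other members 23 rose, 3 fell and 1 did not pass. Among all genes tested 26.0% were called higher and 24.9% lower. Most members are abundant, so the 3636 genes at 50 CPM or more are the closer background, and 37.6% of those were called higher and 36.7% lower, against 34 and 2 of the 39 members at that level.

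The median log2 fold change was 0.60 for the V-ATPase members and 0.84 for the others, beside -0.03 over all genes tested. These values use TMM scaling, which is meant to correct for differences in RNA composition. Scaling by library totals moved the median of all genes by -0.27. On that scale 11 V-ATPase members were called higher and 2 lower, and 20 other members higher and 5 lower, against 14.9% and 53.8% of all genes. The medians were then 0.33 and 0.57. Between the scalings *Atp6v1h* (0.07 by TMM, -0.21 by totals), *Atp6ap2* (0.24 and -0.03), *Asah1* (0.13 and -0.14), *Scarb2* (0.21 and -0.06) and *Mcoln1* (0.25 and -0.03) changed sign, so their direction rests on the scaling. Cells called DAM were also deeper, with pool medians of 11193.5 to 12139.5 counts per cell against 5835.5 to 5904.5 in homeostatic cells. With cells thinned to 2000 counts and gated anew on the thinned counts, 9 of 14 V-ATPase members tested and 18 of 22 others were called higher. Called lower were 0 and 1, beside 19.8% higher and 17.0% lower of 3382 genes. A cell that lost its counts of gate genes could thus leave the DAM group.

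**Figure D1:**
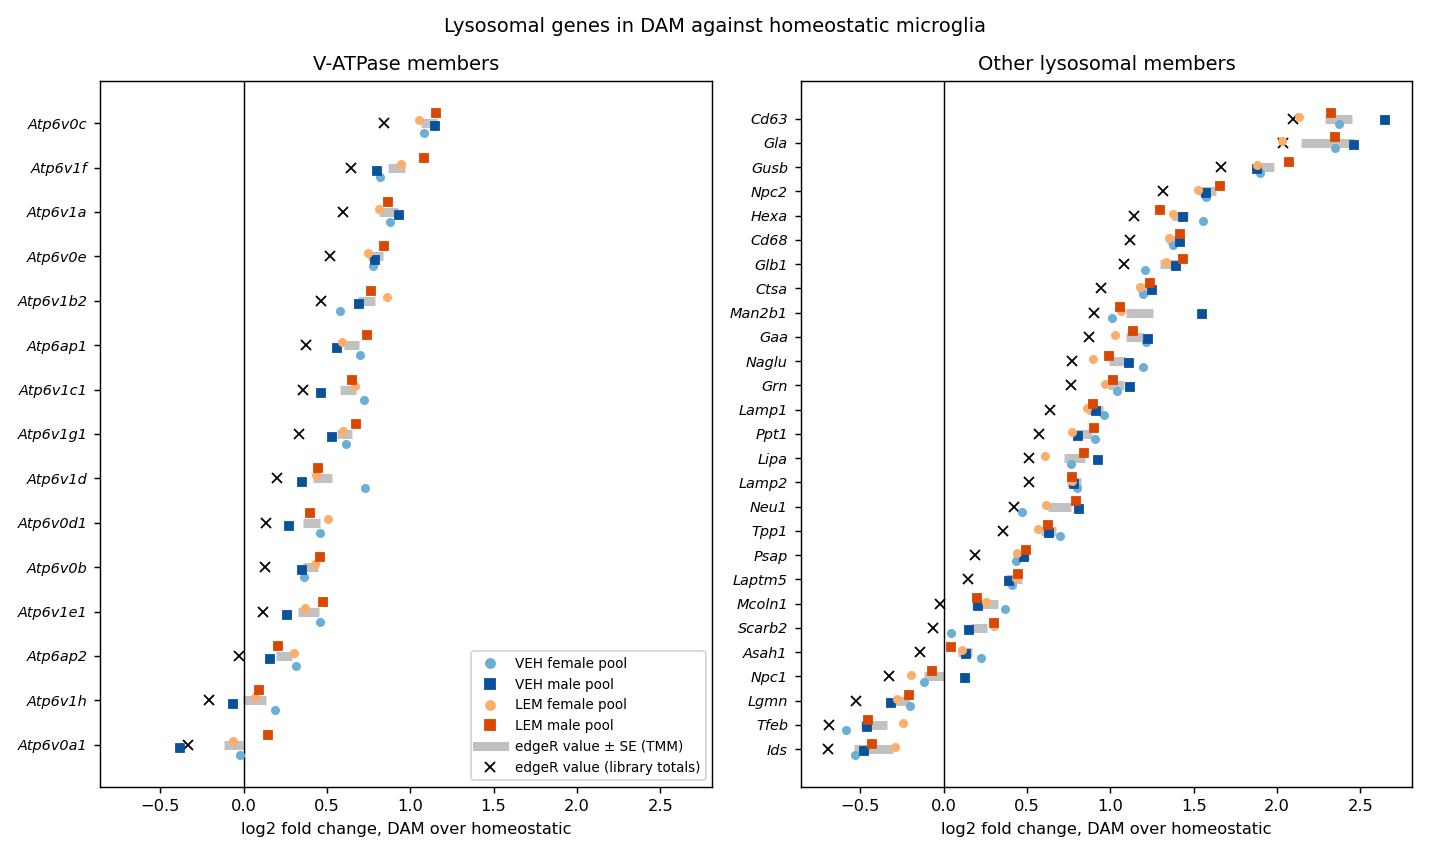
Log2 fold change of DAM over homeostatic cells (x axis) for the 42 members tested, V-ATPase members on the left and other members on the right. Coloured points are the 4 pools, grey bars the edgeR value ± SE with TMM scaling, and crosses the edgeR value with library totals, on which Atp6v1h, Atp6ap2, Asah1, Scarb2 and Mcoln1 lie on the other side of 0. Cd63, Gla and Gusb lie farthest to the right, and Ids, Tfeb and Lgmn to the left of 0 in all 4 pools.

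The largest change of a pump gene was that of *Atp6v0c* (chr17:24163866-24169702, GRCm38). It encodes the proteolipid that forms the c ring of V0. Its level, in CPM on TMM-scaled totals, was 433, 546, 581 and 502 in homeostatic cells of the VEH female, VEH male, LEM female and LEM male pools, and 915, 1210, 1206 and 1119 in DAM. Every DAM pool stood above every homeostatic pool, and the log2 fold change was 1.11 ± 0.05 (SE derived from the fit to 4 pools, adjusted p = 2.7e-32).

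*Atp6v1f*, a subunit of the central stalk of V1, stood at 193, 198, 196 and 184 CPM in homeostatic pools and at 340, 346, 376 and 390 in DAM in the same order (0.92 ± 0.05, adjusted p = 4.5e-24). *Atp6v1a*, the catalytic subunit, went from 76.6, 71.3, 68.2 and 72.9 CPM to 141, 136, 120 and 133 (0.87 ± 0.06, adjusted p = 4.8e-23). The homeostatic and DAM pools did not overlap for either gene.

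*Atp6v0e*, a small V0 subunit, rose by 0.79 ± 0.04 on the log2 scale, from 203.9 to 221.5 CPM in the homeostatic pools to 341.5 to 392.4 in DAM (adjusted p = 9.6e-26). *Atp6v1b2*, the other nucleotide-binding subunit of V1, rose by 0.74 ± 0.05, from 96.1 to 106 CPM to 155 to 181 (adjusted p = 5.3e-21). Neither gene overlapped between the groups of pools. *Atp6v0d1*, the broadly expressed d subunit, which couples the rotor to the stalk, rose less, from 134, 132, 125 and 125 CPM to 184, 160, 178 and 164 (0.41 ± 0.05, adjusted p = 4.1e-10).

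The V-ATPase members with the smallest changes were *Atp6v0a1*, an isoform of the V0 a subunit that holds the proton half-channels, the regulatory subunit gene *Atp6v1h*, and *Atp6ap2*, the (pro)renin receptor. *Atp6v0a1* stood at 135, 130.5, 146 and 140 CPM in homeostatic pools and at 133, 99.98, 140 and 155 in DAM, so the groups overlapped (-0.06 ± 0.06, adjusted p = 0.38). On library totals it was called lower (-0.33, adjusted p = 3.1e-07). *Atp6v1h* also overlapped, at 56.1 to 61.8 CPM against 58.8 to 69.8 (0.07 ± 0.07, adjusted p = 0.46). *Atp6ap2* was higher in each DAM pool, at 228 to 259 CPM against 204 to 213, with a log2 fold change of 0.24 ± 0.05 by TMM that was -0.03 by totals (adjusted p = 7.4e-06 and 0.59).

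By part of the pump, 4 of 5 tested V0 subunits, 7 of 8 V1 subunits and both accessory proteins were called higher with TMM scaling, with medians of 0.41, 0.61 and 0.45. The remaining pump members that rose were *Atp6ap1*, *Atp6v1c1*, *Atp6v1g1*, *Atp6v1d*, *Atp6v0b* and *Atp6v1e1*, between 0.39 and 0.65. Of these, *Atp6v1e1* was not called on library totals (0.12, adjusted p = 0.094). In thinned cells *Atp6v1e1* (0.50, adjusted p = 0.15), *Atp6v1d* (0.23, adjusted p = 0.57), *Atp6v1g1* (0.36, adjusted p = 0.058) and *Atp6ap2* (0.22, adjusted p = 0.32) were not called. Of the other arm *Asah1* (0.18, adjusted p = 0.31) and *Scarb2* (0.07, adjusted p = 0.77) were not called there, and *Gla*, *Neu1* and *Mcoln1* were below the low-count filter.

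The other arm of the lysosome held the largest changes. *Cd63* (chr10:128900989-128912822, GRCm38), a tetraspanin of late endosomes and lysosomes, stood at 339, 286, 411 and 418 CPM in homeostatic pools and at 1752, 1789, 1800 and 2089 in DAM. The lowest DAM pool was above the highest homeostatic pool, and the log2 fold change was 2.37 ± 0.08 (adjusted p = 2.9e-14).

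*Gla* (chrX:134588149-134601125), which encodes the α-galactosidase that trims glycosphingolipids, had few counts. It went from 4.30, 4.53, 3.86 and 4.28 CPM to 21.9, 25.0, 15.8 and 21.8 (2.31 ± 0.16, adjusted p = 4.5e-21). *Gusb*, β-glucuronidase, went from 229, 202, 233 and 238 CPM to 853, 744, 856 and 999.9 (1.94 ± 0.05, adjusted p = 2.1e-48). Both were higher in every DAM pool than in any homeostatic pool.

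*Npc2* encodes the soluble protein that hands cholesterol to NPC1. It stood at 653, 628, 660 and 660 CPM in homeostatic pools and at 1945, 1871, 1901 and 2086 in DAM (1.58 ± 0.05, adjusted p = 3.1e-40). *Npc1*, its membrane partner, did not pass the test (-0.06 ± 0.06, adjusted p = 0.45) and was called lower on library totals (-0.33). *Hexa*, the α subunit of β-hexosaminidase, went from 672, 688, 742 and 674 CPM to 1979, 1860, 1923 and 1660 (1.42 ± 0.05, adjusted p = 5.5e-38).

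Of the 15 hydrolases 13 rose and 2 fell, with a median of 1.04. *Glb1*, *Ctsa*, *Man2b1*, *Gaa* and *Naglu*, which act on glycoproteins, glycogen and glycosaminoglycans, rose by 1.04 to 1.36, and *Ppt1*, *Lipa*, *Neu1* and *Tpp1* by 0.63 to 0.84. All 3 soluble proteins that are not enzymes rose. *Grn*, progranulin, rose by 1.04 ± 0.05 and *Psap*, the precursor of the saposins, by 0.46 ± 0.05. Of the 8 membrane proteins 7 were called higher, among them *Cd68* (1.39 ± 0.05), *Lamp1* (0.91 ± 0.05) and *Lamp2* (0.78 ± 0.04). *Laptm5*, a lysosomal membrane protein of blood and immune cells, rose by 0.42 ± 0.05.

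The 3 members that fell included the transcription factor. *Tfeb* stood at 67.7, 60.5, 63.2 and 62.9 CPM in homeostatic pools and at 45.2, 44.1, 53.3 and 45.9 in DAM (-0.42 ± 0.08, adjusted p = 5.9e-06). *Ids*, iduronate sulfatase, was at 26.7, 26.6, 26.6 and 25.1 CPM and then at 18.5, 19.1, 21.7 and 18.6 (-0.42 ± 0.12, adjusted p = 0.0017). *Lgmn*, the asparaginyl endopeptidase legumain, went from 3598, 3620, 3881 and 3967 CPM to 3131, 2904, 3199 and 3427 (-0.25 ± 0.05, adjusted p = 1.1e-05). For all 3 genes every DAM pool was below every homeostatic pool, and they fell on library totals too, by 0.69, 0.69 and 0.52. In thinned cells *Lgmn* was called lower (-0.43, adjusted p = 3.3e-06), while *Tfeb* and *Ids* were below the low-count filter and not tested, so their falls were not checked at matched depth.

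DAM pools lay entirely above homeostatic pools for 13 of 15 V-ATPase members and 22 of 27 others, and entirely below for 0 and 3. Of all genes tested 21.7% lay above and 21.5% below.

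The sums of the 2 arms do not depend on TMM. V-ATPase members summed to 3026, 3285, 3297 and 3253 CPM of library totals in homeostatic pools and to 3927, 4160, 4304 and 4321 in DAM. The other members summed to 18878, 18342, 19671 and 20038 CPM and then to 27353, 26944, 27450 and 28405. Both sums were higher in each DAM pool. The ratio of the other members to the V-ATPase was 6.24, 5.58, 5.97 and 6.16 in homeostatic pools and 6.96, 6.48, 6.38 and 6.57 in DAM, higher in all 4 pools and without overlap. This ratio is the same under any scaling. Its rise was not particular to DAM. In proliferating pools the ratio was 6.78, 6.54, 6.30 and 6.58 in the same order. In interferon-responsive pools it was 6.89, 6.02, 6.25 and 6.54, and in intermediate pools 6.35, 5.67, 6.07 and 6.21. All of these were above the homeostatic value of the same pool. Within the pump the ratio of V0 to V1 transcripts overlapped between homeostatic and DAM pools, at 1.522 to 1.68 against 1.504 to 1.787. In counts per cell, the V-ATPase sum was 18.2 to 20.2 in homeostatic pools and 45.4 to 52.5 in DAM, and the other sum 113 to 123 and 308 to 335.

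The rise was graded with the number of DAM gate genes in a cell. In VEH cells with 0, 1, 2, 3 and 4 of the 5 genes, the V-ATPase sum was 3190, 3392, 3804, 3996 and 4083 CPM and the other sum 18525, 19983, 23150, 26150 and 27384. In LEM cells the V-ATPase sum was 3276, 3423, 3863, 4233 and 4347 CPM and the other sum 19875, 21012, 23197, 26368 and 29030. The V-ATPase sum of the VEH male pool was the exception, at 4245 CPM with 3 genes and 4066 with 4. The median depth of the VEH cells moved the same way, from 5734 to 12768 counts, and its part in the gradient was not tested. *Cd63* went from 320 to 1617 CPM and *Tfeb* from 66.3 to 39.3 over the same VEH cells. Cells with all 5 genes numbered 3 and 4 and are not described.

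**Figure D2:**
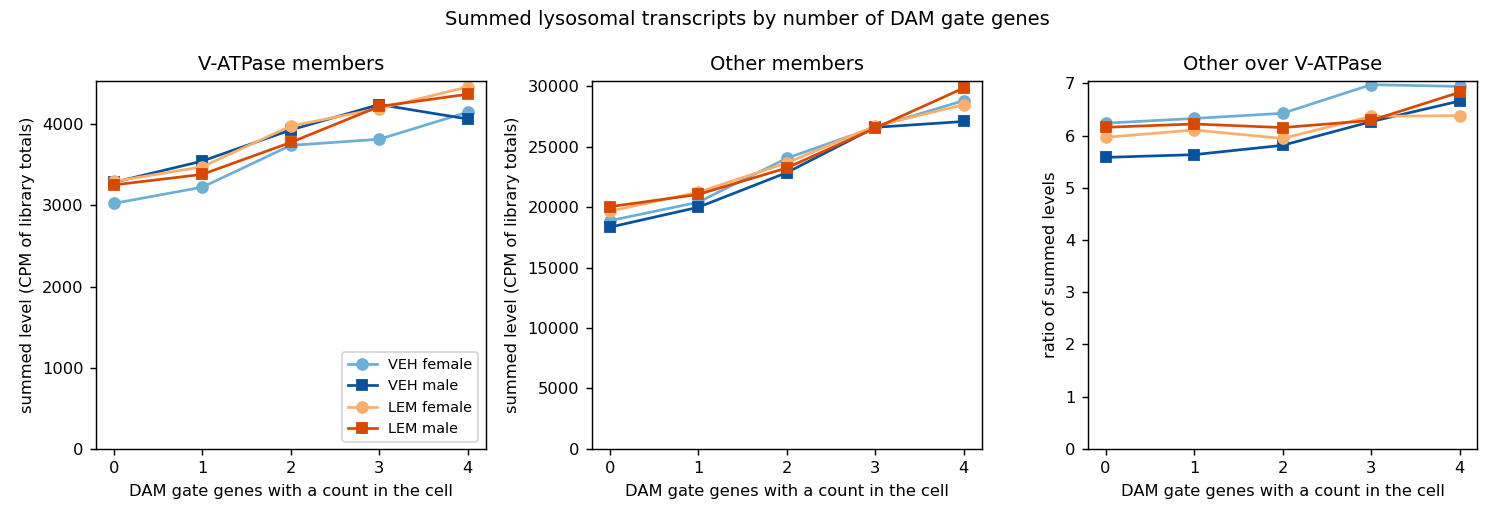
Summed level (CPM of library totals) of the V-ATPase members, of the other members, and the ratio of the second to the first, against the number of DAM gate genes with a count in a cell, for the 4 pools. Groups under 20 cells are left out. Both sums are higher with 4 gate genes than with 0 in each pool, and the ratio lies between 5.58 and 6.24 at 0 genes.

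Intermediate cells showed the same direction with smaller values. Of the V-ATPase members 9 of 15 were called higher and 0 lower, and of the others 19 of 27 and 0, against 9.77% of all genes higher and 7.94% lower, and 16.4% and 16.5% of genes at 50 CPM or more. The medians were 0.13 and 0.20. In thinned cells they were 0.17 and 0.38, and *Gusb* stood at 0.81. Those cells were gated anew on thinned counts and can include cells that were DAM at full depth. The thinned values are thus not of the same cells, and the part of this was not tested. *Cd63* stood at 640, 607, 739 and 657 CPM in the 4 intermediate pools, above the homeostatic values given for it (0.87 ± 0.08, adjusted p = 3.7e-07). *Gla* rose by 0.59 ± 0.13, *Gusb* by 0.43 ± 0.04 and *Atp6v1a* by 0.32 ± 0.04. *Tfeb* (-0.09 ± 0.05, adjusted p = 0.20) and *Lgmn* (-0.04 ± 0.05, adjusted p = 0.64) did not pass. On library totals *Tfeb* (-0.13, adjusted p = 0.039), *Npc1* (-0.12, adjusted p = 0.024) and *Atp6v0a1* (-0.12, adjusted p = 0.018) were called lower, beside 14.5% of all genes.

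In interferon-responsive cells, of which there were far fewer than intermediate cells, 3 V-ATPase members were called higher and 1 lower, and 10 others higher and 1 lower, beside 9.70% and 5.78% of all genes and 16.3% and 12.7% of those at 50 CPM or more. The V-ATPase share called higher, 20%, was near that of the abundant genes. On library totals these counts became 1, 2, 5 and 1, beside 6.86% and 12.1% of all genes, so the V-ATPase shares were at the background. With TMM scaling the calls covered all 3 soluble proteins that are not enzymes, 5 of the 8 membrane proteins and 2 of the 15 hydrolases, and on totals 2, 3 and 0. *Grn* stood at 2446, 2277, 2594 and 2484 CPM against 1734, 1606, 1807 and 1787 in homeostatic pools, with no overlap (0.50 ± 0.05, adjusted p = 1.55e-13). *Cd63* (0.57 ± 0.09), *Npc2* (0.43 ± 0.05) and *Lamp2* (0.33 ± 0.05) also rose. *Npc1*, the cholesterol exporter, fell from 90.5, 107, 104 and 111 CPM to 46.8, 85.2, 88.6 and 83.7 (-0.38 ± 0.09, adjusted p = 0.00077), and the VEH female pool was the lowest. *Atp6v0a1* fell by 0.34 on the log2 scale (SE 0.08, adjusted p = 0.00074). In thinned cells neither fall was called (*Npc1* -0.40, adjusted p = 0.37, and *Atp6v0a1* -0.48, adjusted p = 0.16). Of the V-ATPase members 0 of 14 were then called, with a median of -0.09, and *Grn*, *Cd63*, *Npc2* and *Lamp2* were the 4 others called higher. Among all 3382 genes tested in thinned cells 8.96% were called higher and 3.87% lower.

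As a share of counts, proliferating cells held less of most members. Of the V-ATPase members 11 were called lower and 2 higher, and of the others 19 lower and 1 higher, beside 27.5% of all genes lower and 28.3% higher. Among genes at 50 CPM or more 46.6% were lower, against 29 of 39 members. The medians were -0.39 and -0.31. In counts per cell the direction was the opposite, with a V-ATPase sum of 26.2 in VEH and 29.0 in LEM proliferating cells against 18.9 and 20.1 in homeostatic cells. The other sum was 178 and 191 against 110.05 and 122. Proliferating cells were also deeper, with medians of 9653 and 10027 counts per cell against 5734 and 5780. The sums per cell are not corrected for depth, and its part in them was not tested. The sialidase *Neu1* fell from 49.4, 49.1, 50.7 and 47.4 CPM to 18.4, 26.4, 12.9 and 21.01 (-1.28 ± 0.15, adjusted p = 9.8e-12). *Ids* fell by 1.27 ± 0.21, to 13.8, 9.60, 18.6 and 6.30 CPM. Both values rest on few counts, as the proliferating pools held 53, 76, 60 and 120 cells in the same order. Both genes were below the low-count filter in thinned cells, so these falls were not checked at matched depth. The acid ceramidase *Asah1*, whose direction in DAM rested on the scaling, fell by 0.91 ± 0.06, with proliferating pools at 176 to 222 CPM and homeostatic pools at 365 to 395. The 3 members that rose were *Gusb* (0.48 ± 0.06), *Atp6v1a* (0.32 ± 0.09) and *Atp6v1d* (0.26 ± 0.09). In thinned cells *Gusb* was still called (0.44, adjusted p = 0.0056), but *Atp6v1a* (0.45, adjusted p = 0.11) and *Atp6v1d* (0.36, adjusted p = 0.20) were not. *Gusb* was thus called higher in both DAM and proliferating cells, whereas *Atp6v0c* was called higher in DAM and lower in proliferating cells (-0.43 ± 0.06).

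**Figure D3:**
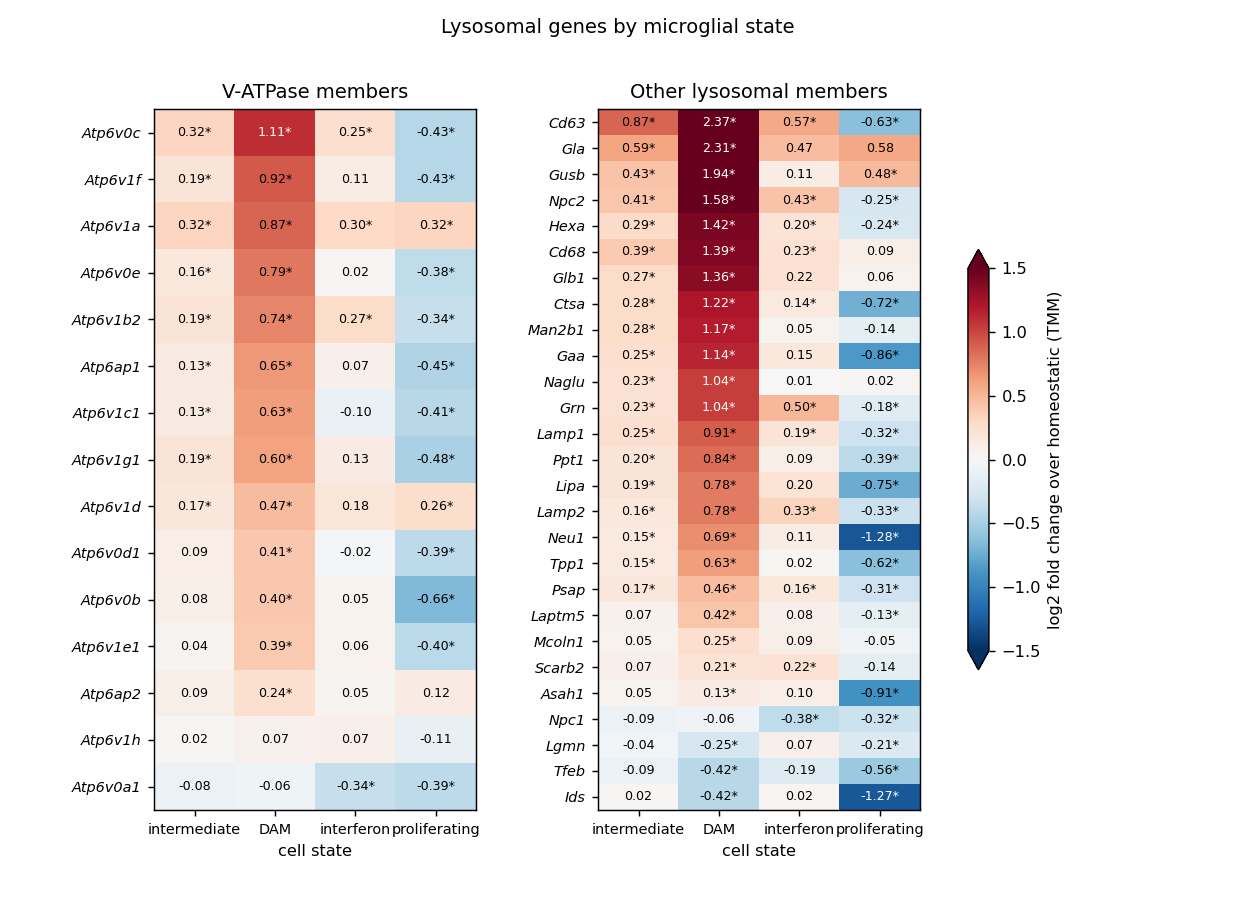
Log2 fold change (colour and number, edgeR with TMM scaling) of each tested member in 4 cell states over homeostatic cells, V-ATPase members on the left and others on the right, ordered by the value in DAM. An asterisk marks an adjusted p under 0.05. The DAM column is the reddest and the proliferating column mostly blue, and library totals lower each DAM value by about 0.27, which turns Atp6v1h, Atp6ap2, Asah1, Scarb2 and Mcoln1 negative.

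A list of 53 further lysosomal genes, among them cathepsins, further hydrolases and paralogues of pump subunits, was read beside the members. Of the 47 tested in DAM 30 rose and 7 fell, with a median of 0.26, beside 26.0% and 24.9% of all genes. On library totals 17 were called higher and 17 lower, with a median of -0.01, beside 14.9% and 53.8% of all genes. The cathepsins *Ctsb* (1.90 ± 0.06), *Ctsl* (1.61 ± 0.05) and *Ctsd* (1.56 ± 0.06) were highest. The endolyn gene *Cd164* (-0.82 ± 0.05), *Atp6v0a2* (-0.80 ± 0.06) and the phospholipase gene *Pla2g15* (-0.69 ± 0.05) were lowest.

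Values for the isoforms of the V0 a subunit are set side by side here, and differences between the isoforms were not tested. In DAM *Atp6v0a1* was not called with TMM scaling, *Tcirg1*, which encodes the a3 form of osteoclast and phagocyte pumps, had a value of 0.04 ± 0.05 (adjusted p = 0.50), and *Atp6v0a2* fell. In interferon-responsive cells *Atp6v0a1* was called lower, though not in thinned cells, and *Tcirg1* was not called (0.002, adjusted p = 0.99). *Atp6v0a2* rose there by 0.76 ± 0.06, the largest value of the list in that state. The list's next highest values in that state were *Ctsb* (0.45) and *Ctsz* (0.35), and the lowest *Atp6v0e2*, *Sort1* and *Mfsd8* (-0.42, -0.33 and -0.31), of which *Sort1* was called. In intermediate cells 13 of 47 rose and 3 fell, beside 9.77% and 7.94% of all genes, from *Ctsb* (0.61), *Ctsl* (0.47) and *Ctsz* (0.45) to *Cd164* (-0.22), *Atp6v0a2* (-0.15) and *Sort1* (-0.14). In proliferating cells 2 rose and 29 fell, beside 28.3% and 27.5% of all genes. On library totals the list had 6 higher and 28 lower in proliferating cells, beside 31.8% and 22.9% of all genes. In intermediate cells it had 11 and 6, beside 7.60% and 14.5%. In interferon-responsive cells it had 7 and 8, beside 6.86% and 12.1%. There TMM scaling gave 11 and 3, beside 9.70% and 5.78%. The highest in proliferating cells were *Galns* (1.33), *Ctsc* (0.38) and *Galc* (0.31, not called), and *Ctsf* (-1.44) and *Sgsh* (-1.001) were among the lowest.

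*Atp6v0d2* encodes an isoform of the d subunit that osteoclasts and some macrophages express. It was close to undetected, with 86 counts over all VEH cells and 76 over all LEM cells. A count was found in 3 of 469 VEH DAM (0.640%, 95% Clopper-Pearson interval 0.132% to 1.86%) and 4 of 623 LEM DAM (0.642%, 0.175% to 1.64%). In homeostatic cells, whose median depth was 5734 and 5780 counts against 11359 and 12071, the shares were 0.407% (0.310% to 0.524%) and 0.255% (0.187% to 0.340%). The intervals of DAM and homeostatic cells overlap, and no difference was detectable at this depth. After thinning, with cells kept in the states of their full counts, 2 of 461 VEH DAM and 0 of 618 LEM DAM held a count. The upper limit of 0.595% for the latter is on cells with a count at this depth and not on cells that express the gene. Cells of another type, those of the choroid plexus gate, held it in 1 of 45 and 2 of 143, and a share of this size cannot be told apart from free RNA. These intervals cover counting error only.

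Between treatments there was 1 library each, so no test was possible and the values compare 2 libraries. A log2 ratio of 0.1 or more in size was used for counting. In LEM over VEH, 5 of 15 V-ATPase members were higher by that measure and 0 lower, and 13 of 27 others were higher and 1 lower. Of all 11910 genes found in at least 1% of cells 21.0% were higher and 14.1% lower. These genes are of all levels, and no share over genes at 50 CPM or more is given for the libraries or the sexes. The medians were 0.03, 0.08 and 0.01 for the V-ATPase members, the others and all genes. Asked in addition to pass 0.1 in each sex, 1 V-ATPase member and 6 others of these 42 remained higher and 0 lower, beside 9.94% and 6.47% of all genes. *Atp6v0d2*, found in less than 1% of cells, is not among the 42.

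The sexes within a library give a scale for these counts. In VEH, female cells were higher than male cells by at least 0.1 for 10 of the 42 members and lower for 6, beside 27.2% and 21.5% of all genes. In LEM the members were 7 and 5, beside 18.03% and 23.1%. The members' shares were below those of all genes in both libraries, though all genes are not matched to the members for level. The intervals given below come from counts alone and cover neither differences between animals nor those between the sexes.

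*Cd63* was the member with the largest ratio. It stood at 462 and 403 CPM of library totals in VEH female and male cells and at 558 and 550 in LEM, higher in both. The log2 ratio was 0.38 (95% interval 0.37 to 0.40) over all cells, 0.27 in females and 0.45 in males. By state it was 0.45 (0.43 to 0.48) in homeostatic, 0.20 (0.17 to 0.24) in intermediate and 0.12 (0.08 to 0.16) in DAM. Within DAM it was 0.04 (-0.03 to 0.11) in females and 0.21 (0.15 to 0.27) in males. *Apoe*, a lipid carrier that rises in DAM, went from 945.7 to 1600.5 CPM in homeostatic cells of the same libraries, and its part in the *Cd63* value was not tested. With the states weighted in both libraries as in VEH, the *Cd63* ratio was 0.35.

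*Gaa*, the glucosidase that degrades glycogen, stood at 98.9 and 90.2 CPM in VEH females and males and at 116 and 102 in LEM (0.22, 0.18 to 0.25). *Atp6v1e1*, part of the peripheral stalk of V1, stood at 63.7 and 70.2 CPM and at 76.9 and 78.0 (0.20, 0.16 to 0.24), and was the only pump member past 0.1 in both sexes. Its ratio was 0.18 in homeostatic, 0.27 in intermediate and 0.22 in DAM cells.

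*Lgmn*, which was lower in DAM, was higher in LEM, at 3899 and 4070 CPM against 3635 and 3657 (0.13, 0.13 to 0.14), with ratios of 0.14 and 0.16 in homeostatic cells and DAM. The DAM ratio was 0.03 (-0.02 to 0.09) in females and 0.23 (0.18 to 0.27) in males. *Psap* stood at 2748 and 2816 CPM against 2556 and 2575 (0.12, 0.12 to 0.13). *Glb1*, β-galactosidase, was at 72.4 and 64.6 CPM against 67.3 and 59.3 (0.12, 0.08 to 0.17), so the LEM male value lay below the VEH female one. *Mcoln1*, the calcium channel mucolipin, was at 48.5 and 51.0 CPM against 45.0 and 46.0 (0.11, 0.06 to 0.16).

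The pump members did not move together. *Atp6v0c* was higher in LEM in females and lower in males. Its levels were 483 and 609 CPM in VEH females and males and 661 and 562 in LEM. The log2 ratio of LEM over VEH was 0.45 (0.43 to 0.48) in females and -0.11 (-0.135 to -0.094) in males, and of female over male cells -0.33 in VEH and 0.23 in LEM. *Atp6v0b*, another proteolipid of V0, had ratios of 0.14 in females and -0.07 in males. *Atp6v0e* and *Atp6v1a* had the opposite signs, with -0.09 and -0.14 in females and 0.10 and 0.07 in males. *Atp6v0d1* was slightly lower in both (-0.08 and -0.06).

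*Tfeb* was at 67.4 and 61.1 CPM in VEH females and males and at 63.5 and 63.7 in LEM, with a ratio of -0.00 (-0.04 to 0.04) over all cells and 0.24 (-0.02 to 0.49) in DAM. *Man2b1*, an α-mannosidase, had ratios of -0.04 in females and 0.34 in males, and *Gusb* of 0.03 and 0.25. Among the 42 members found in at least 1% of cells, *Gla* was the member past 0.1 in the lower direction (-0.15, -0.29 to 0.00), from 672 and 840 counts. *Atp6v0d2*, found in fewer cells than that, had a ratio of -0.65 (-1.11 to -0.18) from 86 and 76 counts, with -1.87 in females and -0.13 in males.

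**Figure D4:**
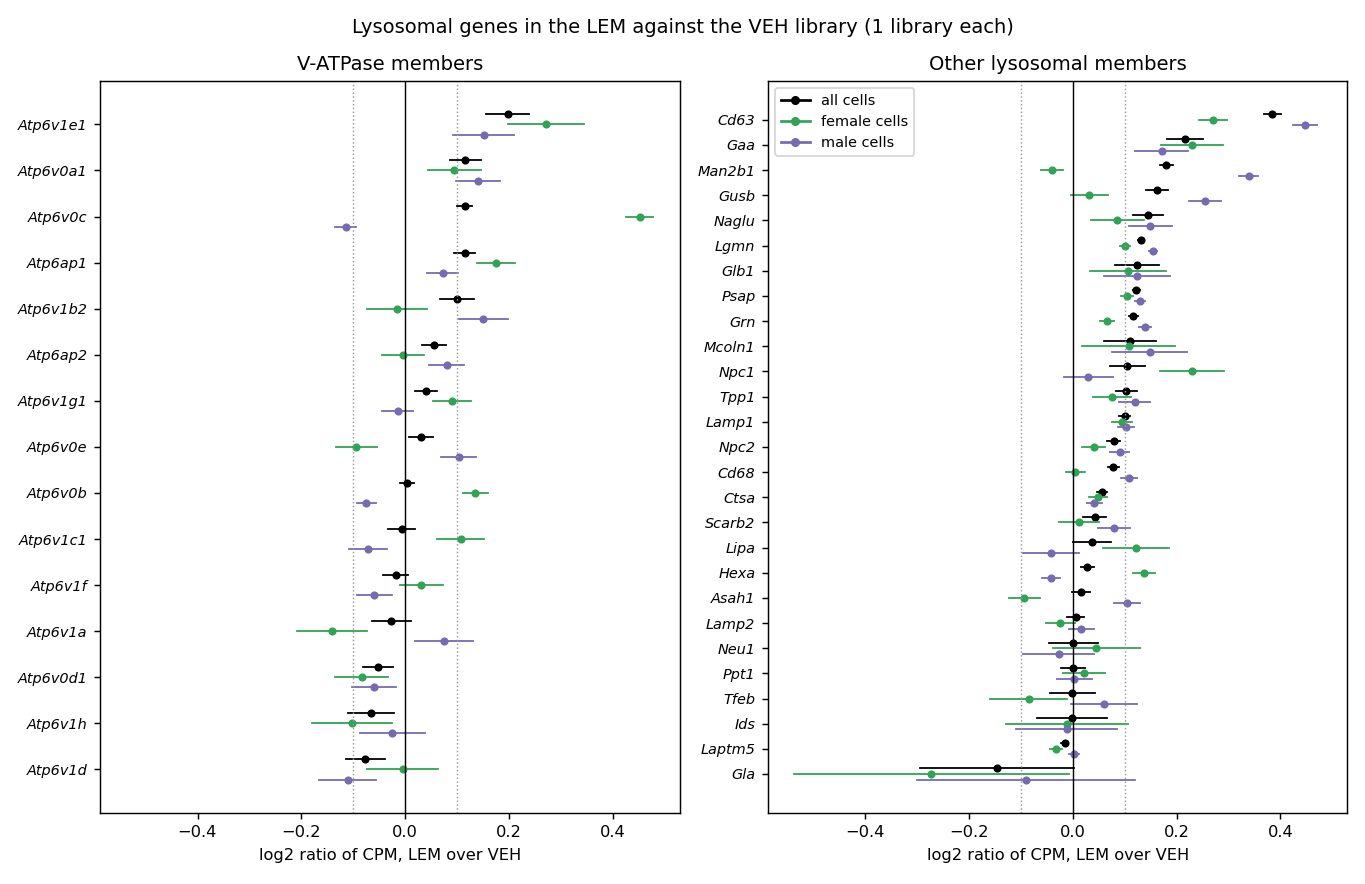
Log2 ratio of CPM in the LEM over the VEH library (x axis) for the 42 members found in at least 1% of cells, over all cells and for female and male cells, with 95% intervals from counts alone. Dotted lines mark 0.1 in each direction. Cd63 lies farthest right on the right-hand side, and the female and male values of Atp6v0c lie on opposite sides of 0.

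Within intermediate cells 2 of 15 V-ATPase members were at or above 0.1 in LEM and 1 below (median -0.03), and 7 of 27 others above and 1 below, beside 30.1% and 17.5% of all genes, so the members' shares were below the background there. Within DAM, 7 of 15 V-ATPase members were at or above 0.1 in LEM and 1 below, and 8 of 27 others above and 2 below. Among all genes with a ratio 32.6% were above and 30.5% below. In females alone 5 V-ATPase members were above and 4 below, and 7 others above and 4 below, beside 38.4% and 36.0% of all genes. In males alone these counts were 7 and 1, and 9 and 5, beside 36.3% and 37.0%. The highest member was *Atp6v0a1*, with 0.36 (0.20 to 0.51), which was 0.07 in females and 0.62 in males, and the lowest *Gla*, with -0.26 (-0.67 to 0.14).

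The summed V-ATPase level was 3112 and 3363 CPM in VEH females and males and 3401 and 3327 in LEM, so the libraries overlapped. The other members summed to 19624 and 19013 CPM in VEH and to 20437 and 20548 in LEM, higher in both LEM pools. Together the 43 genes took 2.25% of all counts in VEH and 2.38% in LEM.

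Of the 48 further lysosomal genes found in at least 1% of cells, 14 were higher in LEM by at least 0.1 and 3 lower, beside 21.0% and 14.1% of all genes, with a median of 0.05. The sulfatase genes *Arsb* (0.41) and *Sgsh* (0.40) and the transporter gene *Abcb9* (0.33) were highest. *Atp6v0e2*, a paralogue of *Atp6v0e*, was lowest (-0.78), followed by *Cd164* (-0.20) and *Sumf1* (-0.11). *Cd164* had a ratio of -0.01 in females and -0.32 in males.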

How the data were processed

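The deposited file is a table of whole-number UMI counts per gene and cell. The authors made 5′ libraries (10x Chromium), ran Cell Ranger 8.0.0 against mm10, corrected for free RNA with SoupX, and removed cells of low gene number, high count or high mitochondrial share. In the table the fewest genes in a cell were 501, the most counts 19999 and the highest mitochondrial share 2.50%. Whether the deposited counts include the SoupX correction could not be told. Any free RNA left in the counts is part of each value.

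The members and lists were chosen with earlier results of these data known. Gates needed 1 or more counts of a gene. *Clec7a*, also listed for DAM, was not used here. Doublets were not called. Cells with both *Xist* and Y-linked counts (981 VEH, 1764 LEM) or neither were outside the 4 pools, and the former were left out in an alternative. Counts were summed per pool and state (5 states in 1 fit) and tested with edgeR 4.0.16 (filterByExpr, TMM, quasi-likelihood, pool block, R 4.3.3). Each SE is the size of the log2 fold change divided by the square root of its F statistic. The fit moderates the spread of a gene by that of other genes. Neither SE nor p-value thus rests on the 4 pool differences of a gene alone. LEM over VEH is a log2 ratio of CPM with an exact conditional binomial 95% interval (scipy, Python), with no pseudocount. Both steps were tested on simulated data.

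Named with full values are the 5 highest and 3 lowest (most negative) log2 fold changes in DAM in each arm, members past 0.1 in all cells and each sex, the 3 highest and lowest of the further list (1 of these values is not reported here), and *Atp6v0d1*, *Atp6v0d2* and *Tfeb*. Other members appear by range, or where a result turned on them after their values were seen. Alternatives were DESeq2 1.42.0, library totals, no low-count filter, each pool left out, whole libraries, other DAM gates, thinned cells, and for LEM over VEH other scalings and subsets of cells. Weighting states as in VEH and grouping by number of gate genes were chosen after seeing the data. Gene positions are from GENCODE M21 (GRCm38, which mm10 names). That annotation lists processed pseudogenes of *Atp6v0c* and *Cd63*, and reads shared with them were not analysed here.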

Additional observations from a re-analysis of the deposited data

Results flagged for a closer look

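For 2 of the 42 members tested, 1 of the 4 pools lay far from the others in the log2 difference of DAM from homeostatic cells. *Gusb* was highest in the LEM male pool, at 2.07, with the other pools between 1.88 and 1.90. *Man2b1* was highest in the VEH male pool, at 1.55, with the others between 1.01 and 1.07. Chance flags about 1 in 20 groups of this size by this measure.

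*Atp6v0c* was marked because its ratio of LEM over VEH had opposite signs in the sexes, 0.4522 on the log2 scale for females and -0.1145 for males. The difference between the sexes was not tested, since each sex of each library is 1 pool of an unknown number of mice.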

How the results depend on the processing

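In DAM the counts of members called higher stayed between 9 and 13 for the V-ATPase and between 18 and 23 for the others under every alternative run, the lowest with thinned cells. Library totals gave 2 V-ATPase and 5 other members lower, beside 53.8% of all genes. Thinning gave 1 other member lower, beside 17.0% of all genes. On totals the log2 fold changes of *Atp6v1h* (-0.21), *Atp6ap2* (-0.028), *Asah1* (-0.14), *Scarb2* (-0.062) and *Mcoln1* (-0.025) reversed. *Asah1* was also no longer called without either VEH pool or the LEM female pool (0.09 to 0.13). In intermediate cells totals gave 1 V-ATPase and 2 other members lower, beside 14.5% of all genes. A DAM gate of at least 4 genes gave 1 other member lower there. In interferon-responsive cells V-ATPase members called higher fell to 1 on totals, 1 without the low-count filter and 0 after thinning, those called lower became 2 on totals and 0 after thinning, and their median turned to -0.012 on totals and -0.093 after thinning. Other members called higher there were 5 on totals, 5 without the filter and 4 after thinning, and lower 2 with whole libraries as blocks and 0 after thinning. Of all genes in that state 6.86% were higher and 12.1% lower on totals, and 8.96% and 3.87% after thinning. In intermediate cells thinning, with cells gated anew, moved the median of the other members from 0.20 to 0.38. In proliferating cells V-ATPase members called higher were 3 on totals (31.8% of all genes), 1 without the filter and 0 after thinning (25.6%). After thinning 7 were lower (23.7% of all genes). With a pool left out those called higher were between 1 and 2, 1 without the LEM male pool. Other members called higher were 2 with DESeq2, on totals, with whole libraries, with the gate of at least 4 genes and without the LEM male pool, and between 1 and 2 over the pools left out. For the state alternatives, shares of all genes are given for totals and thinned cells only. The counts under the other alternatives have no such share beside them and are not read as results about the members.

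For LEM over VEH, V-ATPase members past 0.1 in the lower direction were 2 in female cells and 2 in male cells, beside 25.4% and 15.6% of all genes. Those higher were 5 and 4, beside 26.1% and 27.1%. The median of the V-ATPase members was -0.015 in male cells. Other members were 9 higher and 1 lower in female cells, and 14 higher and 0 lower in male cells. No LEM DAM cell (0%) held 2 counts of *Atp6v0d2*. The longer motif was in 3 other members. The cause of these changes was not tested, except that totals lower every DAM value and thinning leaves fewer counts. No paired analysis was possible because there is 1 library per treatment. Depth limits *Atp6v0d2* and *Gla*, and also *Neu1* and *Ids* in proliferating cells. Having 1 library per treatment limits every LEM value.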
